A study of Mus musculus with 4 samples.

Results

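The RGK proteins Rad, Gem, Rem1 and Rem2, encoded by Rrad, Gem, Rem1 and Rem2, are a small branch of the Ras family of GTPases. They were taken as all probe sets that the platform annotation assigns to 1 of these 4 symbols alone, which gave 4 of the 45037 probe sets of the arrays and 3 of the 4 genes. Rrad and Gem each had 1 probe set and Rem2 had 2. No probe set carried the symbol Rem1 alone, so Rem1 was not analysed here. The family was chosen by the co-culture ratios of Rrad in these arrays, so the ratios of co-culture over separate culture are given as a description and no test was made on them.

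RGK proteins bind guanine nucleotides like other Ras proteins but lack the lipid anchor that most of these carry at the C terminus. They are best known as inhibitors of high-voltage-activated calcium channels, which they reach through the beta subunits of the channel, and they also bind 14-3-3 proteins. Rrad was originally found as a gene overexpressed in the muscle of people with diabetes, and in human cells it is a reported target of p53. Gem was found as a gene induced by mitogens in T cells, Rem1 in the mouse as a gene lowered by bacterial lipopolysaccharide, and Rem2 is known from neurons and endocrine cells.

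The study put Kupffer cells, which are liver macrophages, together with SL4 cells, a mouse colon carcinoma line, and asked what depends on the receptor Dectin-2. Every group held Kupffer cells sorted as CD45+ CD11b+ F4/80+ from female C57BL/6 mice aged 12 weeks, and SL4 cells of the same strain, 100000 cells of each, kept for 8 hours. The 4 groups were Clec4n-/- (Dectin-2 KO) Kupffer cells co-cultured with SL4 cells, wild-type Kupffer cells co-cultured with SL4 cells, and the same 2 pairs cultured separately. The separate cultures were combined as RNA, so each array held RNA of both cell types, and only the Kupffer cells differed in genotype. With 1 array in each group there are no replicates, no difference has a replicate check, and no p-value is given. How many animals the cells of a group came from is not given in the sources used here.

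Values are MAS5 signals, probe set intensities on a linear scale, and ratios were taken only within a probe set. The median signal of an array lay between 72.5 and 78.4. The median over all 4 arrays, 76.1, served as a floor: dimmer values were raised to it before ratios were taken, a ratio against a value at or under it is a lower bound, and a probe set entered a comparison if at least 1 of its 2 arrays lay above it. Clec4n, the deleted gene, lay far under the floor in all arrays, at 8.19 in KO co-culture and 17.6 in WT co-culture for its brighter probe set, and at 8.29 in KO separate culture and 14.2 in WT separate culture, so it is a weak check of the genotype labels. Of 17 macrophage markers 8 lay above the floor in every array, while the Kupffer cell markers Clec4f, Vsig4 and Timd4 lay under it in all 4. So did Ptprc, Itgam and Adgre1, the genes of the surface proteins by which the Kupffer cells were sorted. Ptprc read between 13.8 and 36.4, Itgam between 0.456 and 24.3, and Adgre1 between 16.8 and 35.8. Values this dim only bound the signal. Of 8 epithelial markers only Epcam exceeded the floor in any array. None of the 7 endothelial markers and none of the 6 measured neutrophil markers did. Of the 7 measured hepatocyte markers, 4 lay above the floor in every array, with Alb between 324 and 347.

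Rrad was the RGK gene that differed most between the culture conditions. Its probe set 1422562_at read 336 in KO co-culture and 423 in WT co-culture, against 74.5 in KO separate culture and 83.4 in WT separate culture. Both co-culture arrays were far above both separate arrays, and the separate values lay at the floor, just under it in the knockout and just over it in wild type. In separate culture 49.8% of all probe sets of the KO array and 51.9% of those of the WT array were dimmer than Rrad, against 69.6% in KO co-culture and 72.4% in WT co-culture. Co-culture was thus at least 4.42-fold higher in the knockout, a log2 ratio of at least 2.14, and 5.07-fold higher in wild type, a log2 ratio of 2.34. From the signals without the floor the knockout ratio was 4.51. The arrays hold RNA of both cell types, so which of them carried the Rrad signal is not known, and fewer cells of a type cannot be told apart from less RNA per cell.

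Few probe sets had ratios of that size. Of 23490 probe sets compared in the knockout, 0.626% were past 2-fold on the higher side in co-culture and 0.566% on the lower side. Of 23408 compared in wild type the shares were 0.829% and 0.453%. Of the 21520 probe sets above the floor in both wild-type arrays, Rrad had the 10th highest ratio of co-culture over separate culture. In the knockout it has no place in the order, since its separate value is only a bound. Rrad was the only one of the 4 RGK probe sets past 2-fold, in either genotype, and since it was chosen for this ratio nothing is read from that count.

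**Figure D1:**
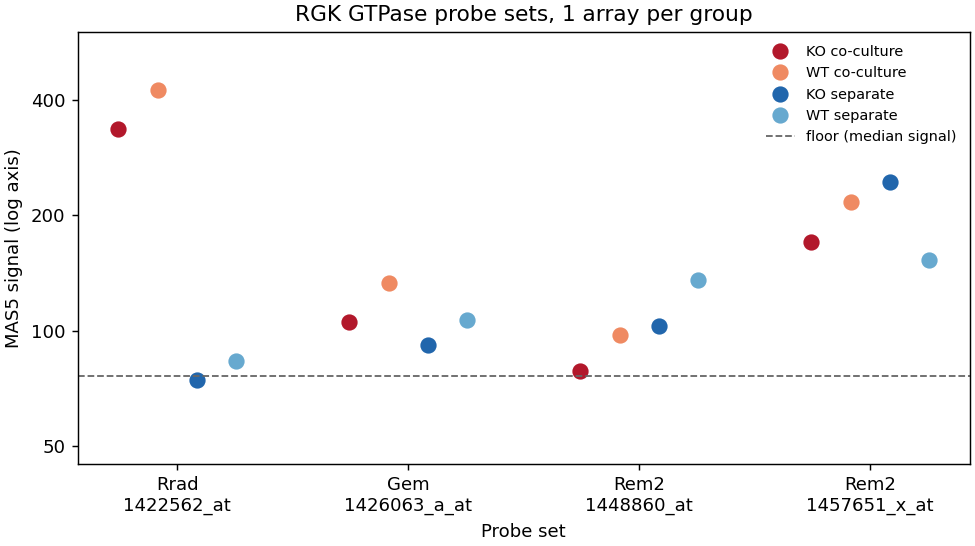
MAS5 signal (log axis) of the 4 RGK probe sets in the 4 arrays, 1 point per array, from left to right KO co-culture, WT co-culture, KO separate and WT separate, with the floor of 76.1 as a dashed line. The Rrad points split by culture condition, at 336 and 423 in co-culture and 74.5 and 83.4 in separate culture, while the Gem and Rem2 points lie between 78.6 and 245 with no gap of that size.

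Gem, whose product blocks calcium channels, was dim in all groups. Probe set 1426063_a_at read 105 in KO co-culture and 133 in WT co-culture, against 91.9 in KO separate culture and 107 in WT separate culture. Co-culture was the brighter condition in each genotype, but the KO co-culture array did not exceed the WT separate array, so the culture conditions overlapped. The log2 ratio of co-culture over separate culture was 0.20 in the knockout and 0.31 in wild type. Of the probe sets measured above the floor in both arrays, 42.0% lay at least that far from 0 in the knockout and 23.8% in wild type. Both separate values lay under 2 times the floor, so a level 2-fold lower in co-culture could not have been measured, while one 2-fold higher could.

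Rem2, a calcium channel inhibitor known mainly from neurons, had a pair of probe sets that did not run together. Probe set 1448860_at read 78.6 in KO co-culture and 97.2 in WT co-culture, against 103 in KO separate culture and 135 in WT separate culture. Both co-culture arrays lay under both separate arrays, with a log2 ratio of -0.39 in the knockout and -0.48 in wild type. That was the opposite direction to Rrad, at a size that 16.8% of the probe sets measured in both arrays reached in the knockout and 11.4% in wild type. Its brightest value was 1.78 times the floor, so a level 2-fold lower in co-culture could not have been measured, while a higher one could.

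The brighter Rem2 probe set, 1457651_x_at, read 170 in KO co-culture and 216 in WT co-culture, against 245 in KO separate culture and 153 in WT separate culture. Here the KO separate array was the highest and the WT separate array the lowest, with both co-culture arrays between them. The log2 ratio of co-culture over separate culture was -0.52 in the knockout and 0.50 in wild type. An ending of _x_at marks probe sets in which some probes also match other sequences, so this signal may not be that of Rem2 alone. The 2 Rem2 probe sets ran the same way in the knockout and opposite ways in wild type, and no direction is given for the gene. The median of both log2 ratios was -0.46 in the knockout and 0.01 in wild type.

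**Figure D2:**
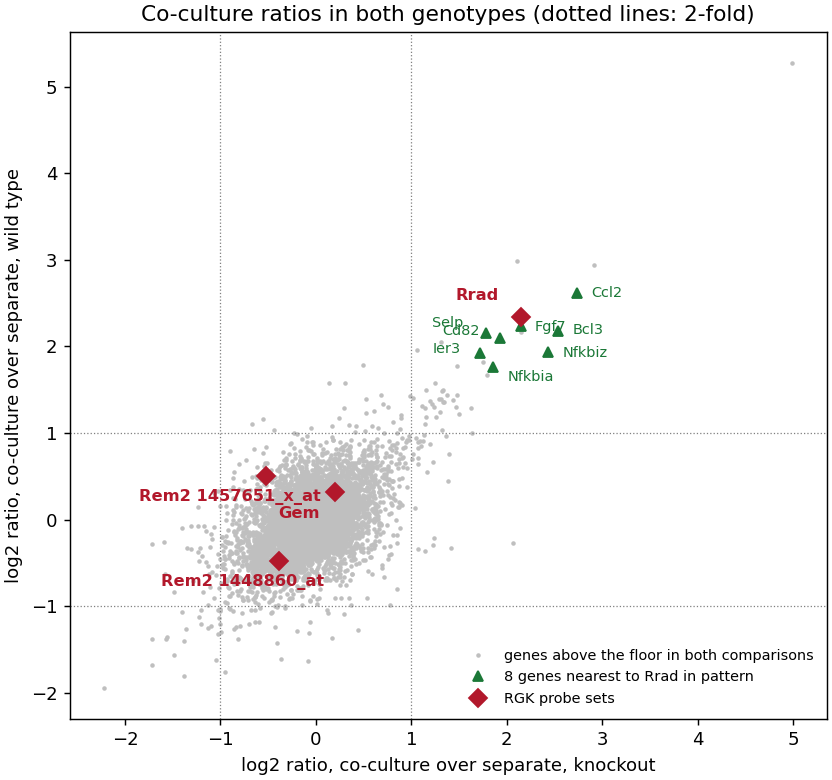
log2 ratio of co-culture over separate culture in the knockout (horizontal axis) and in wild type (vertical axis), 1 grey point per gene above the floor in both comparisons, with the RGK probe sets as diamonds, the 8 genes nearest to Rrad in pattern as triangles, and 2-fold marked by dotted lines. Rrad lies at 2.14 and 2.34, while Gem and both Rem2 probe sets lie inside the central cloud.

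Dectin-2 knockout over wild type was compared within each culture condition. These ratios come from the same 4 signals that led to the choice of Rrad, so they too are a description. In co-culture all 4 probe sets read lower in the knockout and by nearly the same amount. The log2 ratio was -0.33 for Rrad, -0.33 for Gem, -0.31 for Rem2 1448860_at and -0.34 for Rem2 1457651_x_at, which is 1.24-fold to 1.27-fold. None was 2-fold apart. Over all 23507 probe sets 0.136% were at least 2-fold higher in KO co-culture and 0.191% at least 2-fold lower. Differences of this size were common on these arrays, since 15.0% of the 21839 probe sets measured in both arrays lay at least as far from 0 as Rrad did.

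In separate culture the RGK probe sets did not share a direction. The log2 ratio of knockout over wild type was at least 0.13 below 0 for Rrad, where the KO array lay under the floor, -0.22 for Gem and -0.40 for Rem2 1448860_at, but 0.68 for Rem2 1457651_x_at. The last of these ranked 252nd from the highest among 21569 probe sets measured in both arrays, and 1.90% lay at least as far from 0. None reached 2-fold, where the share over all 23159 probe sets was 0.177% higher and 0.168% lower.

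For Rrad the difference between the log2 ratios of co-culture over separate culture, knockout minus wild type, was -0.20. Since the knockout ratio is a lower bound, so is this difference, and without a floor it was -0.17. For Gem this difference was -0.12 and for Rem2 1448860_at 0.09. For Rem2 1457651_x_at it was -1.02, which is 2.03-fold. Among all 24189 probe sets above the floor in at least 1 comparison, 1.02% had a difference at least 2-fold lower in the knockout and 0.591% at least 2-fold higher. With 1 array per group a difference between the genotypes was not tested for any of them.

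The remaining Ras family is the closest relative of the RGK branch. Of its 31 listed genes 28 had a probe set of their own symbol, and 20 could be compared in the knockout and 19 in wild type. Of these 0 were 2-fold apart between the culture conditions in either genotype, where 1.24% of all genes were past 2-fold in each. At that share a list this short would hold few such genes or none, so nothing is read from the 0. The log2 ratios ran between -0.41 for Rhebl1 and 0.28 for Rap1b in the knockout, and between -0.80 for Diras1 and 0.28 for Mras in wild type. Their median was 0.01 in the knockout and -0.05 in wild type, against -0.02 over all genes in each, and with a common median for all arrays the knockout value was -0.02. Several were bright, such as Rap1b, a GTPase of cell adhesion, at 9066 in KO co-culture and 8907 in WT co-culture, against 7486 in KO separate culture and 8255 in WT separate culture. Nras, one of the classical Ras oncogenes, had a log2 ratio of 0.09 in the knockout and -0.13 in wild type. Nkiras1 and Nkiras2, Ras-like proteins that bind inhibitors of NF-kappaB, had values of 0.00 and -0.29 in the knockout, against 0.20 and -0.29 in wild type.

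**Figure D3:**
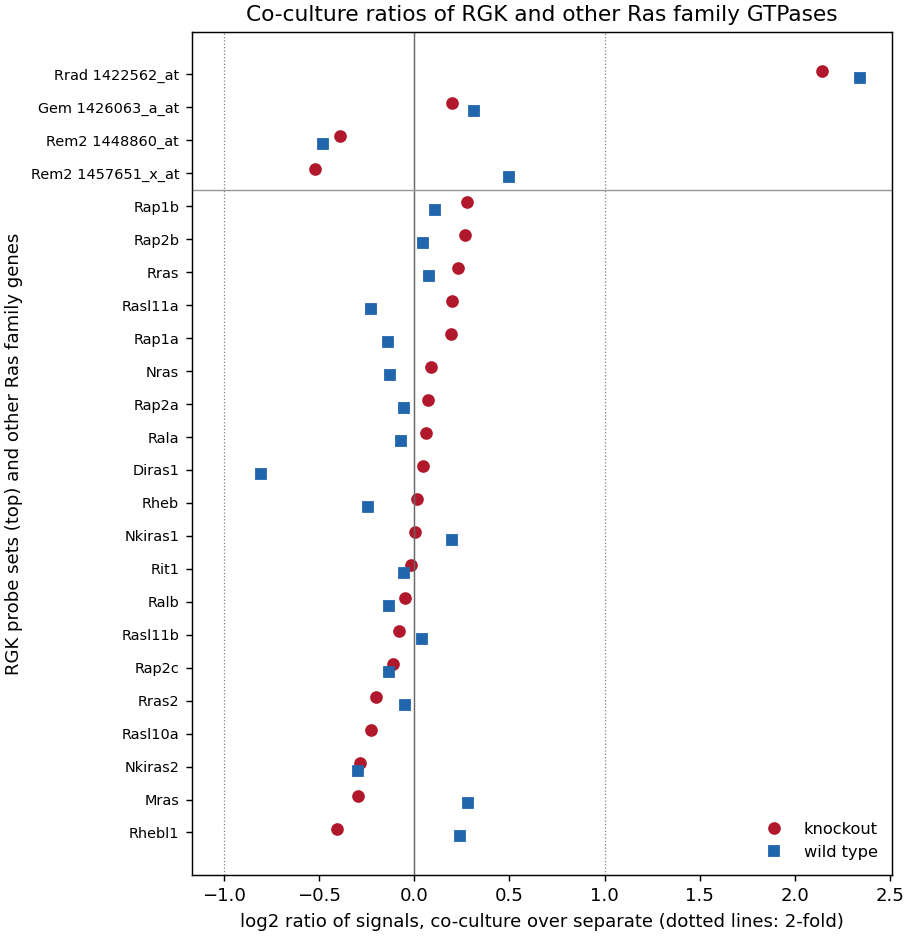
log2 ratio of co-culture over separate culture for the 4 RGK probe sets (above the line) and the 20 other Ras family genes that could be compared (below it), knockout as circles and wild type as squares, with dotted lines at 2-fold. Rrad stands at 2.14 and 2.34, and all other points lie between -0.80 and 0.50.

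The calcium channel genes, whose products RGK proteins act on, were mostly under the floor. Of the beta subunits, the binding partners themselves, 3 of 4 had a probe set and 1 exceeded the floor in any array. That was Cacnb1, with 103 in KO co-culture and 70.6 in WT co-culture, against 80.7 in KO separate culture and 102 in WT separate culture, so its culture conditions overlapped. Of 7 pore subunits 1 exceeded the floor, Cacna1a, with 48.9 in KO co-culture and 109 in WT co-culture, against 80.6 in KO separate culture and 91.1 in WT separate culture. The cardiac and smooth muscle pore subunit Cacna1c read between 0.933 and 11.3, and the skeletal muscle subunit Cacna1s between 15.6 and 26.0. A dim probe set bounds the signal and does not show that a channel is absent.

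One auxiliary subunit was well measured. Cacna2d1, an alpha2delta protein that carries channels to the cell surface, read 702 in KO co-culture and 607 in WT co-culture, against 926 in KO separate culture and 885 in WT separate culture. Both co-culture arrays were lower than both separate arrays, with log2 ratios of -0.40 in the knockout and -0.54 in wild type, short of 2-fold.

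Camk2d, a calcium-dependent kinase, read 1447 in KO co-culture and 1364 in WT co-culture, against 2225 in KO separate culture and 2092 in WT separate culture, a log2 ratio of -0.62 in each genotype. Camk2g was at -0.36 in the knockout and -0.33 in wild type, and Camk2a at -0.41 in the knockout and -0.35 in wild type. All 3 were lower in co-culture and none reached 2-fold. The 14-3-3 genes, whose products hold phosphorylated RGK proteins in the cytoplasm, were mostly bright, with Ywhae between 9912 and 13560. Sfn was dim, between 66.3 and 115, and lay under the floor in KO separate culture. Of the 7, 0 were 2-fold apart in either genotype, where 1.24% of all genes were in each, so nothing is read from the 0. The median log2 ratio of the 7 was 0.17 in the knockout and 0.03 in wild type. With a common median for all arrays the wild-type value was -0.08, and after quantile normalization the knockout value was 0.03.

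Over all genes on the RGK partner, Ras family and p53 lists, 1 was at least 2-fold lower in co-culture and 0 were higher, in each genotype. Over all genes 0.574% were 2-fold lower in the knockout and 0.538% in wild type. At those shares lists of this length would hold few such genes or none, so nothing is read from these counts. The 1 lower gene was Myl9, the regulatory light chain of smooth muscle myosin. It read 372 in KO co-culture and 332 in WT co-culture, against 854 in KO separate culture and 764 in WT separate culture, which is 2.30-fold lower in each genotype. Both co-culture arrays lay far under both separate arrays. Ezr, which encodes the membrane linker ezrin, a reported partner of Gem, was at a log2 ratio of 0.27 in the knockout and 0.25 in wild type. Gmip, another partner of Gem, was at 0.29 in the knockout and 0.15 in wild type.

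Of 19 listed p53 target genes 18 had a probe set, and 14 could be compared in the knockout and 13 in wild type. Of these 0 were 2-fold apart in either genotype, again beside 1.24% of all genes, so nothing is read from the 0. The median log2 ratio was 0.02 in each genotype. With a common median for all arrays it turned to -0.02 in the knockout and -0.10 in wild type, and with a floor of 152 to -0.12 in wild type. Lowering or removing the floor moved the wild-type median the other way, to 0.18 in each case. In the knockout it was 0.02 with the lowered floor and 0.07 without a floor. Plk2, a stress-induced kinase, had the highest ratio among those above the floor in both arrays, 0.61 in the knockout and 0.65 in wild type. Pmaip1, a gene of cell death, was at least 0.53 in the knockout, where its separate value lay under the floor. Cdkn1a, the cell cycle inhibitor p21, read 3538 in KO co-culture and 3555 in WT co-culture, against 2781 in KO separate culture and 2863 in WT separate culture. Its log2 ratio was 0.35 in the knockout and 0.31 in wild type. Mdm2, the inhibitor of p53, was at 0.25 in the knockout and 0.18 in wild type.

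For knockout over wild type, 0 genes of the RGK partner, Ras family and p53 lists were 2-fold apart in either culture condition. Over all genes 0.24% were past 2-fold in co-culture and 0.203% in separate culture, so nothing is read from the 0. Among those above the floor in both arrays compared, the largest difference was that of Mras in co-culture, a log2 ratio of -0.56, and that of Rasl11a in separate culture, -0.52. Genes with an array under the floor give only bounds and have no place in that order. Mras and Rasl11a were dim, with no array above 179.

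The genes whose pattern over the 4 arrays was most like that of Rrad were found by the sum of absolute differences between log2 signals centred on each gene's mean. Candidates were 9374 other genes that reached 2 times the floor in some array. The 8 nearest were, in order, Fgf7, Cd82, Nfkbiz, Bcl3, Selp, Ier3, Nfkbia and Ccl2, at distances of 0.37 to 0.87. No such search was made for Gem, which did not reach 2 times the floor. A likeness over 4 arrays rests mostly on the height of the co-culture ratio and is no more than a description.

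Fgf7, a growth factor for epithelial cells, lay nearest. It read 336 in KO co-culture and 360 in WT co-culture, against 58.6 in KO separate culture and 59.97 in WT separate culture, so that its level in co-culture was again at least 4.42-fold higher in the knockout and at least 4.73-fold higher in wild type. Its other probe set, 1438405_at, moved the same way by a log2 ratio of at least 0.98 in the knockout and 0.76 in wild type. Cd82, a tetraspanin, read 1909 in KO co-culture and 2007 in WT co-culture, against 501 in KO separate culture and 470 in WT separate culture. Its other probe set lay under the floor in every array.

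Of the remaining 6, Nfkbiz, Bcl3 and Nfkbia encode members of the IkappaB family, which bind NF-kappaB. Their log2 ratios of co-culture over separate culture were 2.43, at least 2.53 and 1.86 in the knockout and 1.94, 2.18 and 1.77 in wild type. Nfkbiz had 2 more probe sets that disagreed, one at 2.08 or more in the knockout and 2.17 in wild type, the other at 0.30 in the knockout and 0.58 in wild type. The 4 further probe sets of Nfkbia lay between 1.94 and 2.97 in the knockout and between 2.01 and 2.77 in wild type. Selp, the adhesion receptor P-selectin, was at 1.78 in the knockout and 2.16 in wild type, with its 2 other probe sets at 1.76 and 2.61 in the knockout and 1.90 and 2.40 in wild type. Ier3, a stress-response gene, was at 1.71 in the knockout and 1.92 in wild type, and Ccl2, a chemokine for monocytes, at 2.73 or more in the knockout and 2.62 or more in wild type. In knockout over wild type within co-culture these 8 genes lay between -0.10 for Fgf7 and 0.27 for Bcl3, and Rrad at -0.33 lay under all of them. That spread is within the differences common on these arrays, given above.

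**Figure D4:**
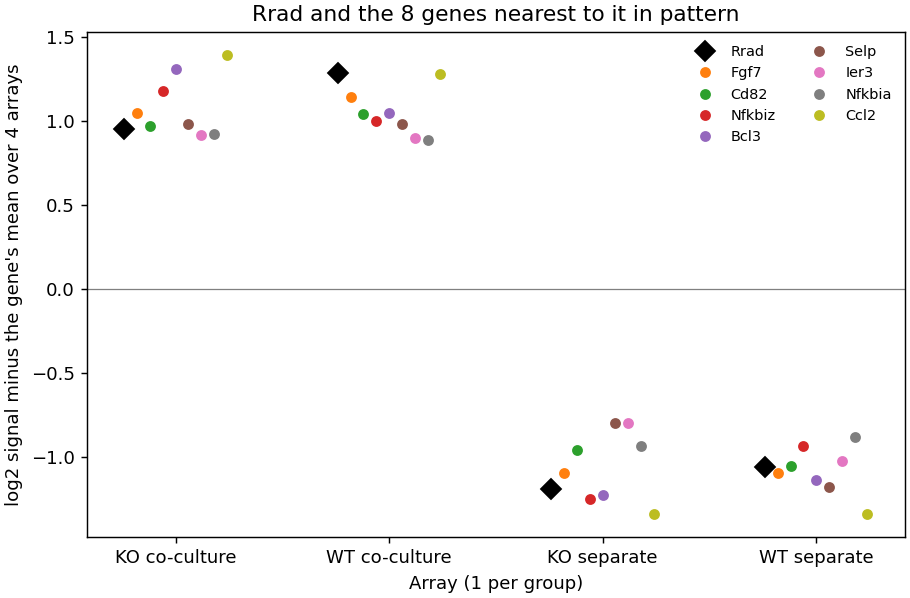
log2 signal of Rrad (diamonds) and the 8 genes nearest to it in pattern (circles), each minus the gene's own mean over the 4 arrays, by array, 1 array per group. All 9 genes lie above 0 in both co-culture arrays and below 0 in both separate arrays, and Rrad is at 0.96 in KO co-culture, 1.29 in WT co-culture, -1.19 in KO separate culture and -1.06 in WT separate culture.

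Markers of the cell types shifted between the culture conditions as well. Signals summed over a list are led by its brightest probe sets, so the sums are only a rough description. The 17 macrophage markers summed to 2173 in KO co-culture and 2286 in WT co-culture, against 2232 in KO separate culture and 1892 in WT separate culture. Of the 8 above the floor, 6 were higher in co-culture in each genotype, but not the same 6. Csf1r at a log2 ratio of -0.19 and Fcer1g at -0.33 were lower in wild type only. Laptm5 at -0.29 and Cd53 at -0.23 were lower in the knockout only. The median log2 ratio of the 8 was 0.18 in the knockout and 0.34 in wild type. Only C1qb was at least 2-fold higher, in wild type at 2.63-fold. Over all genes 0.67% were that much higher in the knockout and 0.701% in wild type. C1qb was read from an _x_at probe set, so its signal may not be that of C1qb alone. C1qa and C1qc lay under the floor in every array. Muscle genes, listed because Rrad and Rem1 are known from muscle, summed to 6857 in KO co-culture and 6471 in WT co-culture, against 8881 in KO separate culture and 9608 in WT separate culture. Of 13 muscle markers 8 lay above the floor in every array. Their median log2 ratio was -0.34 in the knockout and -0.45 in wild type, and Mylk4, a myosin light chain kinase, was 2.57-fold lower in the knockout and 2.41-fold lower in wild type. The 8 mesenchymal markers, of which 5 lay above the floor in every array, were lower in co-culture in sum too. They summed to 11113 in KO co-culture and 10884 in WT co-culture, against 13933 in KO separate culture and 14498 in WT separate culture. Des is on both the muscle and the mesenchymal list, so these 2 sums share a probe set. It read 1086 in KO co-culture and 1173 in WT co-culture, against 1778 in KO separate culture and 2235 in WT separate culture. The part of these shifts in the Rrad signal was not tested.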

How the data were processed

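The deposited values are 1-colour probe set intensities on a linear scale, made by the authors with Affymetrix Expression Console 1.4 and MAS5, per the submitters' processing notes. MAS5 corrects for background and brings all arrays to 1 trimmed mean, which was 497 or 498 here with 2% trimmed at either end. Signals are therefore relative, and total RNA per cell is not measured. cDNA was amplified from 20 ng of total RNA and biotinylated, per the labels' protocols. No detection calls were used.

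Probe sets were named through the platform annotation, which gave 1 symbol to 34945, several to 932 and none to 9160. For lists the brightest probe set (by mean log2 signal) stood for its gene. Signals were raised to the floor of 76.1, log2-transformed and subtracted, and a call is a ratio of at least 2-fold. The rule for the named genes took all RGK probe sets, genes of the fixed lists and the 8 genes nearest to Rrad. The members and lists were chosen with earlier results of these data known. Alternatives changed the floor (none, with values under 1 set to 1, or 38.0 or 152), the scaling (quantile, or a common median) and the choice of probe set. The calculations were tested on simulated data, with changes placed only in probe sets whose mean signal lay above 4 times the floor. All RGK probe sets had lower means, so ratios as dim as theirs were not covered. Python 3.11.15, numpy 2.4.6 and pandas 2.3.3 were used. The number of arrays limits the precision. Some genes are not reported here.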

Additional observations from a re-analysis of the deposited data

Results flagged for a closer look

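A pair of results stood out because the co-culture change ran in opposite directions in the genotypes and differed at least 2-fold. Rem2 1457651_x_at had a difference of log2 ratios, knockout minus wild type, of -1.02, with signals of 170 in KO co-culture and 216 in WT co-culture, against 245 in KO separate culture and 153 in WT separate culture. The other Rem2 probe set had a difference of 0.09. Epcam, an epithelial marker, had a difference of -1.01 or lower. Its signals were 43.9 in KO co-culture and 103 in WT co-culture, against 124 in KO separate culture and 83.9 in WT separate culture. The first of these signals lay under the floor, so the difference is only a bound. Both lay under 4 times the floor in all arrays, and neither difference was tested. Over all 24189 probe sets above the floor in at least 1 comparison, 1.02% had such a difference at least 2-fold lower and 0.591% at least 2-fold higher. Those shares do not ask for opposite directions. For a single ratio of co-culture over separate culture, dim probe sets were past 2-fold more often. With a brighter array at 1 to 4 times the floor, the shares were 1.59% in the knockout and 1.90% in wild type. Over all probe sets they were 1.19% in the knockout and 1.28% in wild type.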

How the results depend on the processing

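Rrad stayed more than 2-fold higher in co-culture in both genotypes under every alternative run, with log2 ratios of 1.14 to 2.17 in the knockout and 1.48 to 2.34 in wild type; the lowest came with the floor at 2 times the median, which shortens every ratio to a dim value. Of 95 member values under alternatives 93 stayed on their side of 2-fold and none changed direction. The other 2 were the difference between genotypes of Rem2 1457651_x_at, at -0.93 with quantile normalization and -0.94 with a common median. The count of 93 is a weak check, since part of it was fixed beforehand. All Gem and Rem2 signals lay above the main floor, so lowering or removing the floor could not move their values. With the floor at 2 times the median, Gem and Rem2 1448860_at lay under it and gave no ratio. Their differences between genotypes, 0 there, were still counted among the 93. So was the wild-type ratio of Rem2 1457651_x_at, which fell from 0.50 to 0.01 with the median over probe sets. Of the 8 genes nearest to Rrad, 6 remained with the floor at 38.0 and 6 with Euclidean distance. A common median moved the median log2 ratio of all genes in wild type to -0.13, against -0.02 as deposited, and Rrad was at 2.23 in wild type there.

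The count of 2-fold probe sets depended on the floor, since dim probe sets vary most. Without a floor, with a floor of 38.0 and with one of 152, the counts higher in co-culture were 4501, 366 and 85 in the knockout and 5147, 468 and 92 in wild type, and the counts lower were 3975, 292 and 58 in the knockout and 3924, 243 and 46 in wild type. For knockout over wild type the counts higher were 4527, 151 and 7 in co-culture and 4791, 191 and 10 in separate culture, and the counts lower were 3816, 176 and 11 in co-culture and 3566, 136 and 10 in separate culture. Scaling moved the split: in wild type 194 were higher and 106 lower as deposited, 166 and 135 after quantile normalization, and 136 and 188 with a common median. In separate culture the knockout had 41 higher and 39 lower as deposited, 32 and 50 after quantile normalization, and 33 and 54 with a common median. Genes past 2-fold on the partner, Ras family and p53 lists numbered 8 in the knockout and 15 in wild type without a floor, against 1 each, and for knockout over wild type 13 in co-culture and 8 in separate culture, against 0, with 1 in co-culture at a floor of 38.0.

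No paired analysis by replicate was possible because the labels give no replicate numbers and each group had 1 array. A fit of culture with genotype as a block, which would leave 1 residual degree of freedom, was not made.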
